A study of Homo sapiens with 6 samples.

Results

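Genes that set or mark the identity of plasma cells and B cells were followed in 3 human multiple myeloma lines, RPMI8226, KMS11 and U266, which are established lines of malignant plasma cells. The genes were taken by symbol from a list of 8, namely IRF4, PRDM1, XBP1, POU2AF1, SUB1, PAX5, SPIB and BLK. Of these, 7 had a named probe set, 1 each, among the 14884 genes named on the array, and PRDM1 was not analysed here. Each line was transfected with 100 nM miR-10a mimic or 100 nM scrambled control and collected at 48 h, and each of the 6 cultures gave 1 Affymetrix Human Gene 2.0 ST array. The 3 mimic arrays and the 3 scrambled control arrays therefore differ in line within a treatment. The sample titles and the cell line field spell the name of RPMI8226 differently, and the titles were followed. All values are log2 expression per probe set as deposited, and the array carries no count depth, so the number of arrays limits the precision.

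In B cells, PAX5 holds the B cell programme by activating genes of the B cell receptor pathway, among them the Src family kinase gene BLK, while SPIB encodes an ETS factor that acts in B cells and restrains plasma cell formation. On differentiation IRF4 and PRDM1, which encodes the repressor BLIMP1, shut that programme down, and XBP1 then expands the secretory apparatus once its RNA has been spliced by the ER stress sensor IRE1, the product of ERN1. POU2AF1 encodes a coactivator that binds octamer factors on immunoglobulin promoters, and SUB1 encodes the transcriptional coactivator PC4. Myeloma cells are known to depend on IRF4.

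The treatment and the promoters of the plasma cell regulators are shown by sequence. The mature strands are shown because the mimic defines the comparison. The promoters are shown because IRF4 and XBP1 were highest in the same line, KMS11. In that line 4 of the 6 tested regulators were highest, and 34.4% of all tested genes. POU2AF1, among these 4, did not pass the test across lines. These windows come from RefSeq and not from the lines, so they hold no difference between lines. The mature strands of MIR10A in RefSeq (GRCh38.p14, minus strand, chr17:48579904-48579926 and chr17:48579864-48579885) are printed 5′ to 3′ with the seed, bases 2 to 8, in capitals. The labels do not say which strand the mimic carries.
hsa-miR-10a-5p: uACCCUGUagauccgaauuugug
hsa-miR-10a-3p: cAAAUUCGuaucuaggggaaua
The 250 bases before the first listed RefSeq start of each gene follow, with CCAAT and CCACG matches in capitals. XBP1 is on the minus strand (chr22:28800570-28800819) and IRF4 on the plus strand (chr6:391502-391751).
XBP1: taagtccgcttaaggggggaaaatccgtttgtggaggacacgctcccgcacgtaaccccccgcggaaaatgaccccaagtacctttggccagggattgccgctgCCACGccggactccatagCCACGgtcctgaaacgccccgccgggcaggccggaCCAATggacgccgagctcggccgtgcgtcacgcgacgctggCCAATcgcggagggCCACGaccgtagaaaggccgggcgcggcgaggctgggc
IRF4: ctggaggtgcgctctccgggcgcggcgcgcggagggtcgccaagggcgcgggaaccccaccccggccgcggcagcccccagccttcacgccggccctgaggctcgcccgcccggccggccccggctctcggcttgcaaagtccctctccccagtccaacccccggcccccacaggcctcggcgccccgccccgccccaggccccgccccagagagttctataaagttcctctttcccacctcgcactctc

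The XBP1 window held 2 CCAAT and 3 CCACG matches. A CCAAT at -52 to -48 and a CCACG at -38 to -34, counted from the start, together formed the ER stress element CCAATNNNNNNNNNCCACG, which 0.07% of 35116 RefSeq promoter windows of this length hold on either strand. The IRF4 window, at 76.0% G and C against 67.6% in XBP1, held no match to any motif searched. The motifs were the octamer ATGCAAAT (in 1.63% of all windows), the interferon response element GAAANNGAAA (3.02%), the ETS and IRF composite element GGAANNGAAA (2.41%), the XBP1 site TGACGTGG (0.61%), the ER stress element, and its parts CCACG (33.51%) and CCAAT (32.01%), all on both strands. The ER stress element overlaps its parts, and no search settles whether a factor binds. Of the 8 genes, 5 were in the promoter table, with 7 windows between them, and only the first listed window of each gene was read. The first windows of PRDM1, PAX5 and SPIB held only CCACG, at 2, 1 and 1 places. Matches in further windows of these genes are not given.

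Arrays of the same line correlated at 0.992 to 0.993 over the 7442 tested genes, and arrays of different lines at 0.715 to 0.779. A filter on mean expression at 4.70 log2 units, the median over named genes, kept 6 of the 7 measured regulators and left out PAX5. The labelled cell type was set against SDC1 (syndecan-1, picked after its values were seen) and CD38, surface markers of plasma cells. SDC1 stood at 7.16 and 7.30 log2 units in the mimic and control arrays of RPMI8226, in KMS11 at 5.72 and 5.52, and in U266 at 9.48 and 9.49. CD38 stood at 9.90 and 9.99 in RPMI8226, in KMS11 at 4.92 and 4.89, and in U266 at 3.80 and 4.11, so the lines carried these markers at very different levels. Among markers of other cells, the summed log2 level of 6 named T cell genes ran from 25.86 to 27.46 in mimic arrays and from 25.80 to 26.51 in control arrays, that of 7 myeloid genes from 23.49 to 26.96 and from 23.56 to 28.04, and that of 5 stromal genes from 22.90 to 27.29 and from 22.84 to 26.86. No marker is listed at 0, no detection calls were used here, and the 6 erythroid genes listed were not analysed here. In each culture, fewer cells that express a gene and less of its RNA per cell cannot be told apart.

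**Figure D1:**
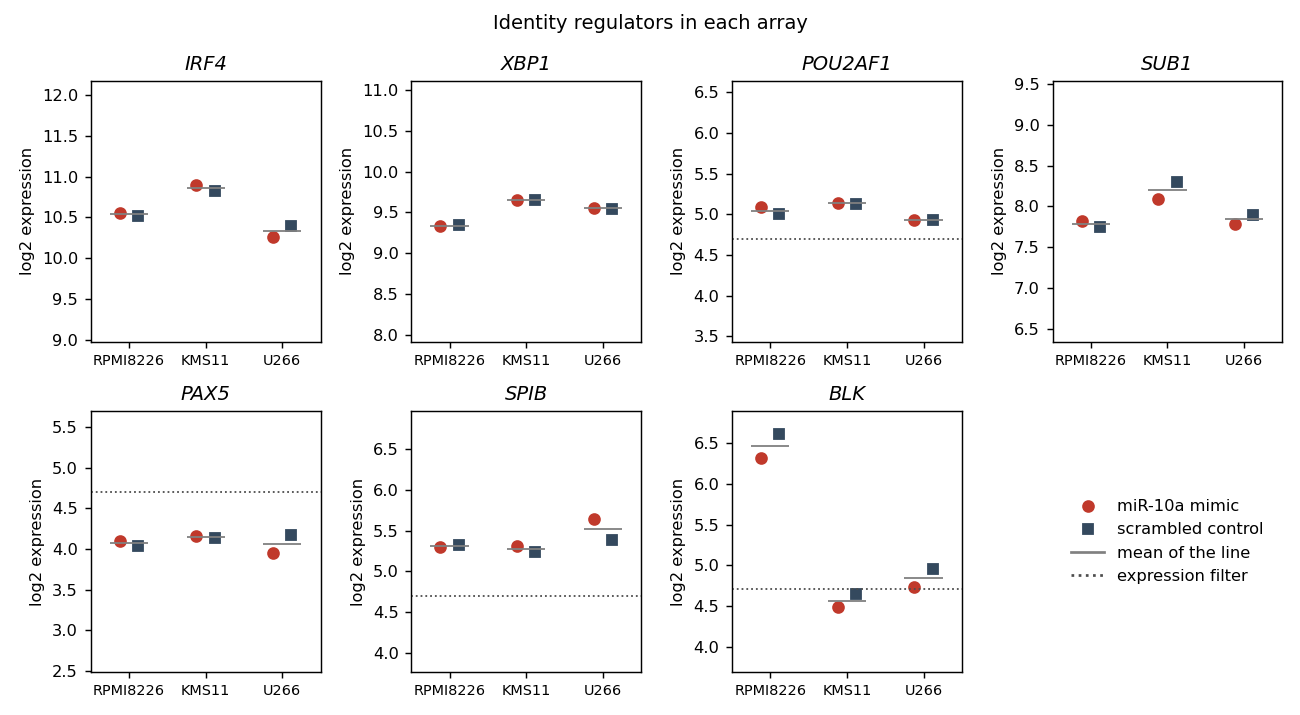
Log2 expression of the 7 measured regulators in each array, with the mimic array left of the control array in each line, a grey bar at the line mean and a dotted line at the expression filter of 4.70. Every panel spans the same number of log2 units. BLK stands clearly apart in RPMI8226, while the other genes lie close together in the 3 lines.

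IRF4 (Entrez gene 3662, probe set 17004167, chromosome 6), the transcription factor required for plasma cell formation, was expressed in all 3 lines. It stood at 10.55 and 10.52 log2 units in the mimic and control arrays of RPMI8226, in KMS11 at 10.89 and 10.83, and in U266 at 10.26 and 10.40. KMS11 was highest and U266 lowest. The difference KMS11 minus U266 was 0.53 log2 units (95% interval 0.31 to 0.76), or 1.45-fold, with limma's adjusted p = 0.00311. RPMI8226 minus KMS11 was -0.32 (interval -0.55 to -0.10, limma's adjusted p = 0.0219), and RPMI8226 minus U266, at 0.21 (-0.01 to 0.43), did not pass (adjusted p = 0.0861). With all arrays kept, RPMI8226 minus U266 passed in 3 of 8 other settings. The call between RPMI8226 and KMS11 was lost without any 1 of the 4 arrays of these lines (highest adjusted p 0.148), whereas the call between KMS11 and U266 held in each of 6 fits with 1 array left out (highest adjusted p 0.0271).

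XBP1 (gene 7494, probe set 16933535, chromosome 22), the transcription factor that drives secretory expansion, was the most even of the measured regulators within a line, with a widest gap between mimic and control of 0.0059 log2 units. It stood at 9.34 in both arrays of RPMI8226, at 9.65 in both arrays of KMS11 and at 9.55 in both arrays of U266. KMS11 was again highest. RPMI8226 minus KMS11 was -0.31 (interval -0.51 to -0.12, limma's adjusted p = 0.0133), a call lost without any 1 of the 4 arrays of these lines (adjusted p from 0.0575 to 0.0796). RPMI8226 minus U266 was -0.21 (-0.40 to -0.02, adjusted p = 0.0542) and KMS11 minus U266 was 0.11 (-0.09 to 0.30, adjusted p = 0.279), so these neighbours did not pass. With all arrays kept, RPMI8226 minus U266 passed in 5 of 8 other settings and KMS11 minus U266 in 0 of 8. The test across the 3 lines passed for XBP1 (adjusted p = 0.0242) but not without any 1 of the RPMI8226 or KMS11 arrays (highest adjusted p 0.0986) and not when all named genes were tested (adjusted p = 0.0776). The probe set does not distinguish spliced from unspliced XBP1 RNA, and RefSeq lists 1 XBP1 pseudogene with no named probe set.

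Of the ER stress sensors above XBP1, ATF6 had the same order of lines and ERN1 did not. ERN1 stood at 10.84 and 10.88 log2 units in RPMI8226, in KMS11 at 8.83 and 8.74, and in U266 at 7.28 and 7.36, a range of 3.54 between line means with RPMI8226 highest, where XBP1 was lowest. ATF6 stood at 9.04 and 8.88 in RPMI8226, against 10.24 and 10.26 in KMS11 and 9.13 in both U266 arrays, so KMS11 was highest. SEL1L, which acts in disposal of misfolded ER proteins, was lowest in RPMI8226 at 8.57 and 8.47, against 9.84 and 9.77 in KMS11 and 10.34 and 10.36 in U266. SEC61A1, a subunit of the ER translocation channel, ranged over 0.44 between line means (limma's adjusted p = 0.0135 across lines). Of 18 listed genes of the XBP1 pathway, 7 were tested and all 7 differed between lines, or 5 to 7 with 1 array left out, against a background of 82.4% of tested genes. Their median range was 0.94 log2 units.

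SUB1 (gene 10923, probe set 16983746, chromosome 5), the PC4 coactivator gene, was highest in KMS11. It stood at 7.82 and 7.74 log2 units in RPMI8226, in KMS11 at 8.09 and 8.30, and in U266 at 7.78 and 7.90, so KMS11 lay above both other lines and those overlapped. RPMI8226 minus KMS11 was -0.41 (interval -0.66 to -0.17, limma's adjusted p = 0.0117) and KMS11 minus U266 was 0.36 (0.11 to 0.60, adjusted p = 0.0207), while RPMI8226 minus U266 was -0.06 (-0.30 to 0.19, adjusted p = 0.637). Without the control array of KMS11 the differences of KMS11 from the other lines were smaller but kept their direction. RPMI8226 minus KMS11 was then -0.32 and KMS11 minus U266 was 0.26. Both calls and the call across lines were lost in that fit, which has fewer arrays. The call against RPMI8226 was also lost without the RPMI8226 control (0.0778), and the call against U266 without the U266 control (0.0537) or mimic (0.0884). RefSeq lists 4 SUB1 pseudogenes, none with a named probe set here, so the SUB1 values are uncertain where probes are shared with them.

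POU2AF1 (gene 5450, probe set 16744247, chromosome 11), the octamer coactivator gene, lay close to the expression filter in every array. It stood at 5.09 and 5.00 log2 units in RPMI8226, at 5.14 and 5.13 in KMS11 and at 4.93 in both U266 arrays. KMS11 was highest in order and U266 lowest, but the test across lines did not pass (limma's adjusted p = 0.131). KMS11 minus U266 was 0.20 (interval 0.0039 to 0.40, adjusted p = 0.0702). That pair passed after quantile normalization (0.24, adjusted p = 0.0387). POU2F2, which encodes the octamer factor OCT2 and was picked out after its values were seen, was highest in U266 instead, with 3.32 and 3.21 in RPMI8226, 3.23 in both KMS11 arrays, and 6.19 and 6.40 in U266.

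The B cell regulators PAX5 (gene 5079, probe set 17093973, chromosome 9) and SPIB (gene 6689, probe set 16864518, chromosome 19) showed no difference between lines past the threshold. PAX5 stood at 4.10 and 4.04 log2 units in RPMI8226, in KMS11 at 4.15 and 4.13, and in U266 at 3.95 and 4.18, below the filter in all 6 arrays. All its arrays fell within the spread of the U266 pair, and when all named genes were tested its adjusted p across lines was 0.816 (limma). SPIB stood at 5.29 and 5.33 in RPMI8226, in KMS11 at 5.31 and 5.24, and in U266 at 5.64 and 5.39. U266 was highest in order and the other lines overlapped, with limma's adjusted p = 0.113 across lines, and KMS11 minus U266 at -0.24 (interval -0.48 to -0.00068, adjusted p = 0.0736). Without the U266 control that pair passed, at -0.36 (adjusted p = 0.0488).

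BLK (gene 640, probe set 17065750, chromosome 8), the B cell kinase gene, was the regulator that set a line apart. It stood at 6.32 and 6.61 log2 units in the mimic and control arrays of RPMI8226, in KMS11 at 4.49 and 4.64, and in U266 at 4.73 and 4.96. Both RPMI8226 arrays lay more than 1 log2 unit above all others. Both KMS11 arrays lay below the filter and both U266 arrays above it, and the mean of these lines lay just above the filter. RPMI8226 minus KMS11 was 1.90 (interval 1.69 to 2.10, limma's adjusted p = 1.70e-05), or 3.73-fold, and RPMI8226 minus U266 was 1.62 (1.42 to 1.83, adjusted p = 2.47e-05), or 3.07-fold. These held with any 1 array left out (highest adjusted p 0.000733). KMS11 minus U266 was -0.28 (-0.48 to -0.07, adjusted p = 0.0276), a call lost without any 1 of the 4 arrays of these lines. With all arrays kept, it passed in only 2 of 7 other settings (highest limma adjusted p 0.100).

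Several other genes of B cell receptor signalling were also highest in RPMI8226. BTK, a kinase gene of that pathway, stood at 7.47 and 7.26 in RPMI8226, at 3.90 and 3.79 in KMS11 and at 5.44 in both U266 arrays. BLNK, the adaptor that links the receptor to BTK, stood at 7.08 and 7.11 in RPMI8226, in KMS11 at 3.29 and 3.16, and in U266 at 3.31 and 3.43. SYK, the kinase that phosphorylates BLNK, stood at 6.12 and 5.78, at 3.62 and 3.58, and at 3.54 and 3.48 in the same order of lines. LYN, the Src family kinase related to BLK, ran the other way, with 6.28 and 5.84 in RPMI8226, 7.81 and 7.86 in KMS11, and 7.74 and 7.91 in U266. CD22, CD24, BANK1 and TCL1A lay below the filter in every line.

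Of 21 listed B cell surface and receptor signalling genes, 11 were named and only BTK and LYN passed the filter, BTK only through its level in RPMI8226. LYN differed between lines, against the background of 82.4% of tested genes. BTK, tested only through RPMI8226, had to differ. With all 14884 named genes tested, 7 of the 11 differed between lines, where 50.8% of all genes did. BTK, BLNK, SYK, VPREB3, CR2 and CD72 were called and highest in RPMI8226, 6 of 11, where 15.9% of all genes were. CR2 overlapped between RPMI8226 (4.51 and 4.71) and KMS11 (4.41 and 4.53) and was lower in U266 (3.10 and 2.82), and CR2 and CD72 lay below the filter of 4.70 on average in every line. The counts called were 6 to 8 and 5 to 7 with 1 array left out, and all but BTK and LYN were named after their values were seen. The myeloid marker CD68, at 8.02 and 8.35 in RPMI8226 against 4.49 and 4.46 in KMS11 and 5.34 and 5.14 in U266, and the matrix gene FN1, at 12.81 and 12.84 against 6.05 and 5.97 and against 4.78 and 4.69, were likewise highest in RPMI8226. Of the other 4 named stromal genes, VIM ran the other way, at 6.20 and 6.13 in RPMI8226 against 9.42 and 9.41 in KMS11 and 9.60 and 9.62 in U266, and DCN, LUM and THY1 lay at or below 4.06 in every array. The other 6 named myeloid markers lay at or below 4.24 in every array. The part of other cell types in the level of BLK was not tested.

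**Figure D2:**
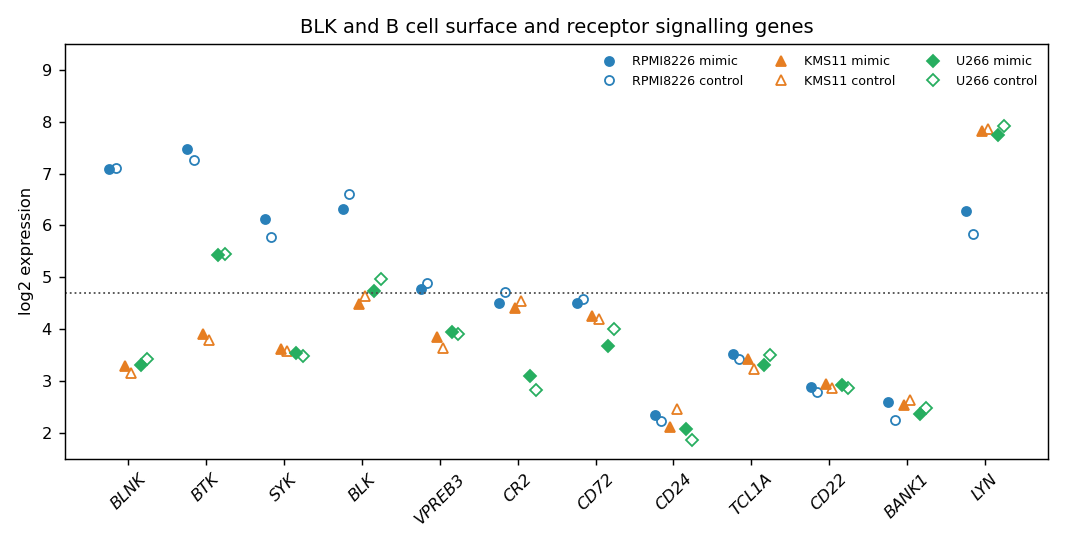
Log2 expression of BLK and the 11 named B cell surface and receptor signalling genes in each array, with mimic arrays filled and control arrays open, ordered by RPMI8226 minus the mean of the other lines. The dotted line is the expression filter of 4.70, and BLNK, BTK, SYK, BLK, VPREB3 and LYN lie above it in both RPMI8226 arrays. LYN lies above it in every array and is higher in KMS11 and U266.

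Across lines, 4 of the 6 tested regulators (IRF4, XBP1, SUB1 and BLK) passed the F test, against 82.4% of all tested genes, a share below that background. Between RPMI8226 and KMS11 4 passed (background 65.0%), between RPMI8226 and U266 1 passed (67.4%), and between KMS11 and U266 3 passed (63.8%). IRF4, XBP1 and SUB1 were called and highest in KMS11, where 28.8% of all tested genes were. Without the KMS11 control, 2 of the 6 passed across lines, IRF4 and BLK. Between RPMI8226 and KMS11 the count was 1 without the control array of either line and 2 without the mimic array of either line. Between KMS11 and U266 it was 1, IRF4, without the KMS11 control or without the U266 mimic array, and 2, IRF4 and SPIB, without the U266 control. The median range between line means was 0.36 log2 units over the 6 regulators and 0.77 over all tested genes. A wider range than that of IRF4 was found in 68.1% of tested genes, than that of SUB1 in 77.0%, of XBP1 in 84.1%, of SPIB in 89.3% and of POU2AF1 in 92.0%, but than that of BLK in 10.9%. Each line is represented by 2 arrays that differ in treatment, and no label names separate cultures within a treatment, so these p-values measure only the spread between such arrays, which may be technical.

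Among other genes of plasma cells, 11 of 20 listed were named and 9 tested. All 9 differed between lines (8 or 9 with 1 array left out), against the background of 82.4%, with a median range of 3.85 log2 units. CD38, SLAMF7 and LAX1 averaged below the filter outside the line where each was highest, so they were tested only through that line and had to differ. The median range of the other 6 was 2.04. The widest were CD38, with a range of 5.99 and RPMI8226 highest, LAX1, an adaptor of lymphocyte signalling, with 4.76 and U266 highest, and SLAMF7, a surface receptor of plasma cells, with 4.11 and U266 highest. SLAMF7 stood at 3.79 and 3.33 in RPMI8226, in KMS11 at 3.27 and 3.47, and in U266 at 7.23 and 7.73. Of the others, the line range was 0.94 for PIM2, a survival kinase gene, 1.12 for CD28, a costimulatory receptor gene, and 2.16 for SEC11C, a signal peptidase subunit gene. The rest, named after their values were seen, had ranges of 3.87 (SDC1), 3.85 (MZB1) and 1.92 (DERL3).

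Of 19 other B cell transcription factors listed, 14 were named and 11 tested, and all 11 differed between lines. ETS1 and BCL6 averaged below the filter outside their highest line, so they were tested only through that line and had to differ. The other 9 all differed between lines, against the background of 82.4%. The median range was 1.25 log2 units over the 11 and 1.19 over these 9. IRF8, which acts beside IRF4 at composite elements, stood at 7.24 and 7.25 in RPMI8226, in KMS11 at 5.73 and 5.42, and in U266 at 4.97 and 5.21, an order unlike that of IRF4. SPI1, the gene of PU.1 and a relative of SPIB chosen after its values were seen, was also highest in RPMI8226, with 5.83 and 5.58 against 4.93 and 4.84 in KMS11 and 4.66 and 4.47 in U266. ETS1 had the widest range, 4.19, with 2.59 and 2.94 in RPMI8226, 6.97 and 6.93 in KMS11, and 4.82 and 4.78 in U266. BCL11A was lowest in U266, with 6.94 and 6.78 in RPMI8226 and 7.09 and 6.96 in KMS11, against 4.69 and 4.49 in U266. IKZF1 and IKZF3, lymphoid zinc finger factors, and TCF3, an E protein gene, had ranges of 1.09, 1.28 and 1.16, each lowest in RPMI8226.

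**Figure D3:**
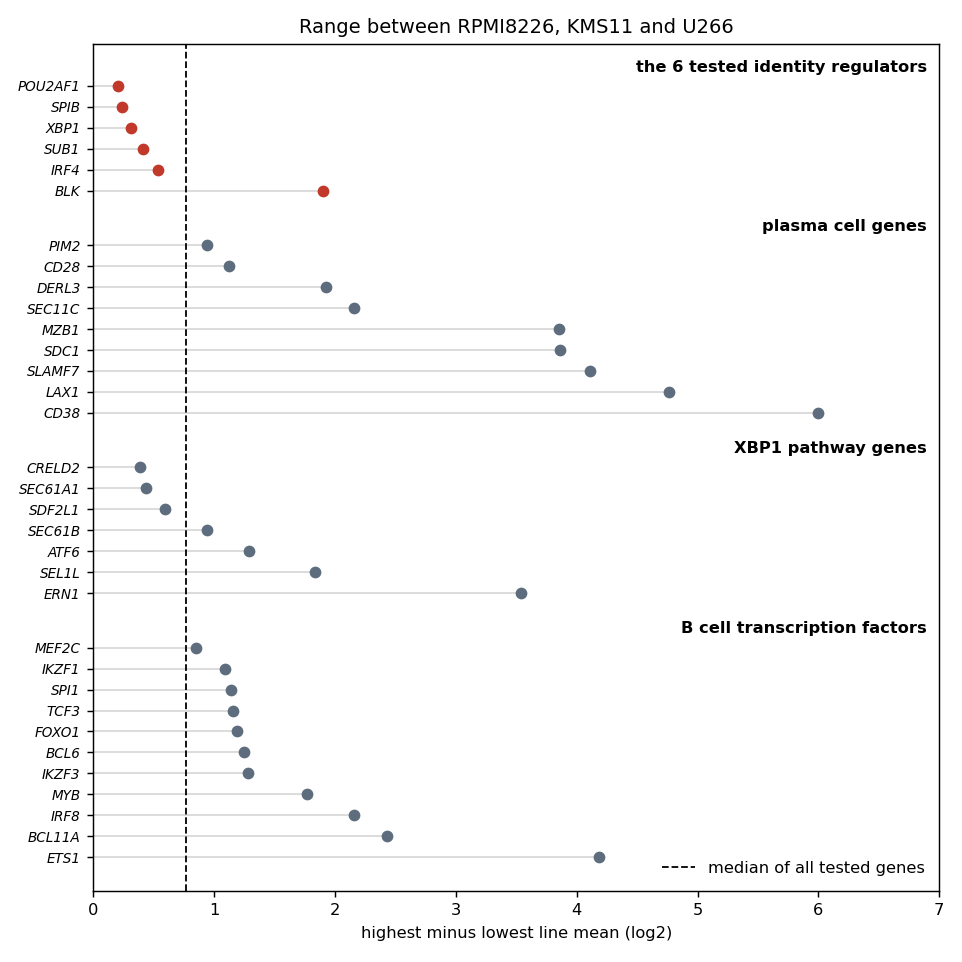
Range between the highest and the lowest line mean (log2 units, 2 arrays a line) for the 6 tested regulators in red and, in grey, for tested genes of the plasma cell, XBP1 pathway and B cell factor lists. The dashed line is the median of all 7442 tested genes, 0.77, and the regulators except BLK lie below it.

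The miR-10a mimic, compared with the scrambled control within each line, changed none of the 6 tested regulators past the threshold (0 called, background 0% of 7442 genes, limma with the line as a block). At an unadjusted p under 0.05 stood 403 genes, or 5.42%, and BLK was the 1 regulator among them. IRF4 averaged 10.57 ± 0.32 log2 units with mimic and 10.58 ± 0.22 with control, XBP1 9.51 ± 0.16 and 9.51 ± 0.16, POU2AF1 5.05 ± 0.11 and 5.02 ± 0.10, and SUB1 7.90 ± 0.17 and 7.98 ± 0.29 (SD, n = 3 lines). The 95% interval of the change lay within 1.5-fold in either direction for all 6 tested regulators, with a median half-width of 0.175 log2 units.

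BLK had the widest mean change of the regulators. Its mimic array lay below its control array in each line, with differences in log2 units of -0.29 for RPMI8226, -0.15 for KMS11 and -0.23 for U266. It averaged 5.18 ± 0.99 with mimic and 5.40 ± 1.06 with control (SD, n = 3 lines). The mean change was -0.22 ± 0.07 (SD of 3 lines), with an interval from -0.39 to -0.06, an unadjusted p of 0.0170 and limma's adjusted p of 0.889. Of all tested genes, 13.8% were lower in all 3 lines, and the KMS11 and U266 values of BLK lie near the filter. Over 10 alternative settings the change ran from -0.26 to -0.19, with adjusted p from 0.757 to 1.

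For the other regulators the lines did not share a direction. The SPIB differences were -0.03 for RPMI8226, 0.07 for KMS11 and 0.25 for U266, with a mean of 0.10 ± 0.14 (interval -0.10 to 0.29, limma's adjusted p = 0.917). SUB1 changed by 0.08, -0.20 and -0.12 in the same order, a mean of -0.08 ± 0.15 (-0.28 to 0.12, adjusted p = 0.922). IRF4 changed by 0.03, 0.07 and -0.14, a mean of -0.01 ± 0.11 (-0.20 to 0.17, adjusted p = 0.991), and turned to 0.051 without U266. PAX5, read from the fit of all named genes, changed by 0.07, 0.02 and -0.22, a mean of -0.04 ± 0.16 (limma's adjusted p = 0.987), or 0.046 without U266. POU2AF1 changed by 0.03 ± 0.05 (adjusted p = 0.968) and XBP1 by 0.00033 ± 0.0050 (adjusted p = 0.999), a value whose sign changed with the scaling of the arrays and without U266.

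Whether a line's mimic change differed from that of the other lines was tested with a term for that line, which leaves 1 residual degree of freedom. For RPMI8226, KMS11 and U266 in turn, 0 of the 6 regulators were called (background 0% in each). The smallest unadjusted p was 0.150, for SUB1 in RPMI8226, whose change was 0.24 above that of the other lines. The lists around the regulators had 0 genes called with mimic as well. The median change was 0.0048 over 9 plasma cell genes, 0.06 over 7 XBP1 pathway genes, 0.02 over 11 B cell factors and -0.0066 over the 6 regulators, against -0.0029 over all tested genes.

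**Figure D4:**
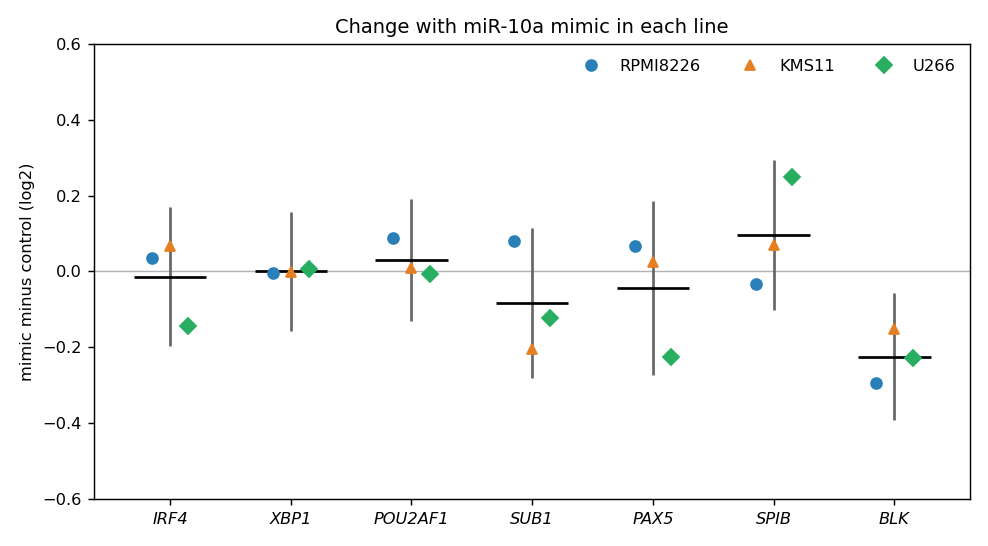
Log2 change, mimic minus scrambled control, of the 7 measured regulators in RPMI8226, KMS11 and U266 (symbols), with the mean of the lines as a black bar and its 95% interval from limma as a grey line (PAX5 from the fit of all named genes). BLK is the gene with all 3 lines on the same side of 0 and an interval that does not reach 0.

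The genes nearest in pattern were sought by the root mean square difference of gene-centred log2 values over the 6 arrays, among tested genes. For IRF4 these were PDPK1, ERP44 and CDK7, with differences of 0.033, 0.038 and 0.044 and Pearson's r of 0.98 to 0.99. For XBP1 they were MTG1, MOB1A and PHF3 (0.024, 0.030 and 0.032), for SUB1 CCDC186, ARAF and MED1 (0.017, 0.029 and 0.033), and for POU2AF1 PPIH, MTDH and NDC1 (0.023, 0.025 and 0.030). For SPIB the nearest were MIDN, RPS6KL1 and GAK (0.043, 0.050 and 0.052). By this measure, which can grow with a gene's own line range, BLK had no equally near gene. MAML2, NOPCHAP1 and ARHGAP26 came closest at 0.132, 0.133 and 0.137, with Pearson's r of 0.99 each. These were about as far above the other lines in RPMI8226, with line ranges of 1.98, 1.97 and 2.07 against 1.90 for BLK. The 6 arrays form 3 pairs of the same line, so likeness here is mainly over 3 line levels, and no test is given.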

How the data were processed

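Whole-transcript arrays of 3 myeloma lines, each with miR-10a mimic and scrambled control, were used. The authors deposited 1 table of log2 values for 53617 probe sets, made with Affymetrix Expression Console 1.3.0 per the submitters' processing notes. Background correction, normalization, summarization and the build stay not given in the sources used here. Array medians were 3.61 to 3.66, and centring is unknown. The platform annotation gave 1 symbol for 16098 probe sets, several for 0 and none for 37519, and all 16098 gene IDs matched RefSeq (GRCh38.p14), with 0 symbols updated. Per gene, the probe set with the highest mean was used (779 genes had several). Levels of different probe sets were compared for that choice, for the expression filter and to pick which list genes to name. For the markers of other cells they were also summed.

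limma 3.58.1 in R 4.3.3 (lmFit, eBayes, no trend) fitted line and treatment to all 6 arrays, two-sided, with Benjamini-Hochberg adjustment over the 7442 tested genes and a threshold of 0.05 (2 residual and 3.82 prior degrees of freedom). The line label pairs the arrays, and deviations of paired arrays from treatment means correlated at 0.967 to 0.970. Fits were checked on simulated data. The regulators and gene lists were chosen with earlier results of these data known. Genes outside the 8 were named by 3 rules, which were likeness to a regulator, the 3 highest means of a list and the 3 widest line ranges of a list, or are marked as picked after their values were seen. Alternatives were the filter, normalization, probe set rule, variance model, block and arrays left out.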

Additional observations from a re-analysis of the deposited data

How the results depend on the processing

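The mimic result held under every alternative run, with 0 genes and 0 regulators called, also with no replicate block (0, while 2 genes had an unadjusted p below 0.05) and in each line's own change. Counts of regulators that differed between lines rested on few arrays. With 1 array left out, 2 to 4 were called across lines, 1 to 4 between RPMI8226 and KMS11 and 1 to 3 between KMS11 and U266. Between RPMI8226 and U266, 2 of 3 were called among the upper 25% of genes, 2 with array medians centred, 3 with a variance trend (with and without robust fitting) and 2 without the treatment term, against 1. With no filter, 1 was called between KMS11 and U266, against 3. Among the upper 25% of genes, 3474 of 3721 differed between lines, against 6135 of 7442. That is a lower count, since fewer genes were tested, but a higher share.

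Values near 0 changed sign. With 1 line left out, the mimic change ran from -0.054 to 0.051 for IRF4, from -0.0024 to 0.0025 for XBP1 (-0.0027 after quantile normalization, -0.0081 with medians centred) and from -0.10 to 0.046 for PAX5. With 1 array left out, RPMI8226 minus KMS11 ran from -0.16 to 0.012 for PAX5 and from -0.059 to 0.14 for SPIB (-0.024 after quantile normalization, -0.0067 with medians centred), RPMI8226 minus U266 from -0.13 to 0.14 for PAX5 (-0.0047 and -0.010 under these settings) and from -0.18 to 0.065 for SUB1, and KMS11 minus U266 from -0.057 to 0.21 for PAX5. None of these values was called, and the cause was not tested. A line with 1 array left was assumed to vary like the others. Of the line differences of single regulators under alternatives, 235 kept direction and side of the threshold, 24 lost a call, 10 gained a call and 10 changed sign.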
